A study of Mus musculus with 12 samples.

Results

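Mouse embryonic stem cell clone C11, labelled as lacking the A-repeat of Xist, was compared with clones C1 and 2C2, which carry the same label, and Dox state was a term of the test. The members are all libraries labelled XistDelA: C11 without and with doxycycline (2 samples) against C1 and 2C2 in the same 2 states (4 samples), so 6 of the 12 samples of the series. The series measured chromatin-associated RNA in female 129S by Castaneus cells whose Xist on the 129S chromosome is driven by a doxycycline-inducible promoter. NoDox cells were left without the drug and Dox cells received it for 24 hours. Each clone was grown in serum and LIF on inactivated mouse fibroblasts, and per the paper the cells were pre-plated to remove these before RNA was taken. C1 and 2C2 carry the designation A8 in the deposited data while C11 carries A6, so whether all 3 clones hold the same deletion is not known. The paper describes a precise deletion of the A-repeat, in replicate lines, and a larger deletion reported earlier. Each clone is 1 line with 1 library per state. A p therefore compares libraries and does not speak for clones in general.

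Xist is the RNA that coats and silences the chromosome it is made from, and its A-repeat, near the 5′ end, is the stretch that silencing needs. Cloned embryonic stem cell lines can gain or lose pieces of chromosomes in culture, and in a hybrid cell such a change moves the share of reads that come from each parental genome. Read pairs were assigned to 129S (domesticus) or Castaneus by sequence variants, and the share given below is domesticus over both. Counts per gene do not show where a deletion starts or ends.

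All 6 libraries held RNA of embryonic stem cell markers. Pou5f1, the core pluripotency factor, was at 64.5 and 49.0 CPM (read pairs per 1000000, scaled by TMM) in C1 NoDox and Dox, 60.2 and 58.1 in 2C2, and 64.4 and 61.5 in C11. The values of C11 lay within those of the other 4 libraries. Zfp42, a marker of the naive state, was at 687, 904, 637 and 896 CPM in C1 NoDox, C1 Dox, 2C2 NoDox and 2C2 Dox and at 703 and 884 in C11, also with overlap. Sox2, Sox1 and Peg13 had 0 counts in every library. Each lies within a longer gene on the same strand in the files, and read pairs that overlap 2 genes on 1 strand were not counted, so their RNA could not be judged. The 7 fibroblast markers summed to 15.2, 13.9, 11.7 and 13.4 CPM in C1 and 2C2 and to 9.95 and 9.75 in C11, lower in both libraries of C11. The 4 primitive endoderm markers summed to 5.96, 6.23, 7.42 and 7.15 CPM against 9.72 and 8.08, higher in both. The 3 mesoderm markers summed to 5.54, 5.58, 6.88 and 7.05 CPM against 4.13 and 4.60, lower in both. The longer list of 14 fibroblast genes summed to 77.8, 72.3, 75.1 and 75.3 CPM in C1 and 2C2 and to 78.7 and 79.3 in C11, but without its most abundant member, Fbn1, to 34.9, 34.0, 29.6 and 31.7 against 24.5 and 23.8, again lower in both. Fbn1, a fibrillin of the extracellular matrix, was at 43.0, 38.3, 45.5 and 43.6 CPM against 54.2 and 55.5. Both C11 libraries were above the others, and DESeq2 called Fbn1 while edgeR did not (log2 0.37, SE 0.09, adjusted p 0.0755 in edgeR). DESeq2 also called Col5a2, a collagen chain of the list, lower, at 16.9, 17.1, 15.7 and 16.3 CPM against 12.7 and 12.1, and edgeR did not (log2 -0.41, SE 0.10, adjusted p 0.0779 in edgeR). Fbn1 and Col5a2 were chosen after their values were seen.

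Across the genome 468 of 15130 genes tested were called different in C11 (edgeR quasi-likelihood, adjusted p under 0.05, 3.09% of the genes tested), 205 higher (1.35%) and 263 lower (1.74%). The calls were unevenly placed. In 10 Mb windows whose allelic share was displaced in C11, at the ends of chromosomes 1 and 6, 137 of 290 genes were called (47.2%), whereas in autosomal windows even between the clones 225 of 12961 were (1.74%). Windows that differ between C1 and 2C2, all on chromosome 11, held 70 of 1184 (5.91%) and the X chromosome 35 of 602 (5.81%). The median log2 difference was 0.00 over all genes tested. Both C11 libraries lay beyond all 4 others in 3777 of the 15130 genes (25%), called or not. Set against C1 alone, C11 differed in 5296 of 14963 genes (35.4%), and against 2C2 alone in 2291 of 14864 (15.4%). These 2 comparisons share the C11 libraries. Each set 1 clone against 1 clone in 4 libraries, with 1 residual degree of freedom, and DESeq2 was not run on them. The spread between C1 and 2C2 did not enter either fit. The number called depended on every library: it was 136 without C1 NoDox, 297 without C1 Dox, 304 without 2C2 NoDox, 253 without 2C2 Dox, and 1 without either C11 library. The 137 in windows particular to C11 became 72 without C1 NoDox and 0 without either C11 library in edgeR (164 at unadjusted p under 0.05 in each case, and 159 by DESeq2 with all libraries). DESeq2 called 898 genes in all. With each clone its own term, which takes the difference between C1 and 2C2 out of the residual, edgeR called 4067, with no Dox term 204, and with all 12 libraries in 1 fit 256.

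On chromosome 1 the domesticus copy of the end of the chromosome was nearly silent in the counts of C11. A gene counted as shifted when the share of both C11 libraries lay at least 0.08 to one side of all 4 others, in genes averaging 50 or more allelic counts. The boundary that best parted shifted genes from the rest, sought after the windows had been seen, had 588 genes before it and 52 beyond it. All 52 were shifted and none of the 588. The last gene before the boundary was Ephx1, an epoxide hydrolase, which ends at 181017495, and the first beyond it was Nvl, an ATPase of ribosome assembly, which starts at 181093422 (mm10). The share of Nvl was 0.608, 0.615, 0.604 and 0.598 in C1 NoDox, C1 Dox, 2C2 NoDox and 2C2 Dox, and 0.0127 and 0.0146 in C11 NoDox and Dox. The C11 libraries were far below the other 4, which lay close together. Ephx1, by contrast, had shares of 0.532, 0.478, 0.424 and 0.518 in C1 and 2C2 against 0.485 and 0.382 in C11, with overlap. Pooled over all 103 genes of the stretch, domesticus made up 57.3%, 56.1%, 55.6% and 55.4% of allelic counts in C1 and 2C2. In C11 it made up 1.51% (95% interval 1.39 to 1.63) and 1.24% (1.14 to 1.36), intervals that cover counting error alone. So in both states of C11 almost every allelic read of this stretch was Castaneus.

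**Figure D1:**
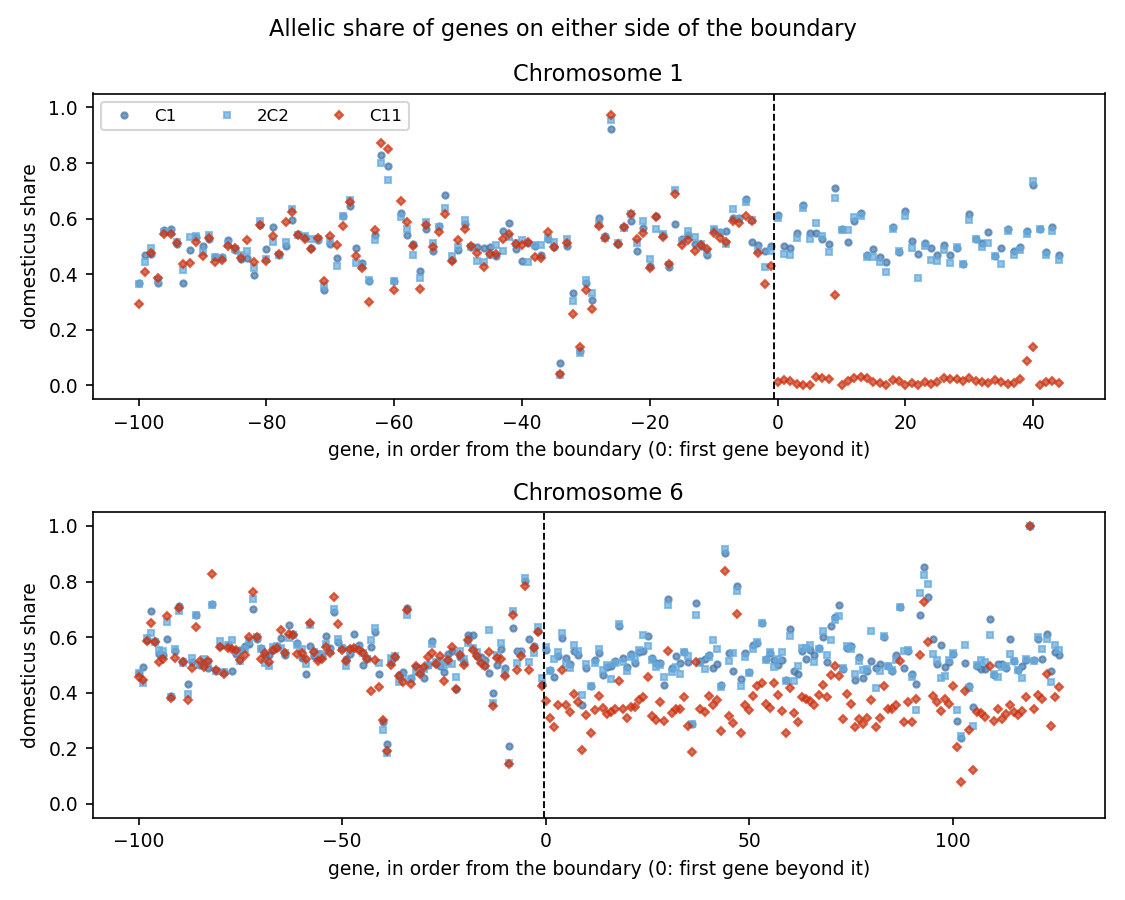
Domesticus share of allelic counts for genes in chromosomal order around the boundary on chromosome 1 (top) and chromosome 6 (bottom), with the 2 libraries of each clone summed. Genes averaging 100 or more allelic counts are drawn, and the dashed line marks the boundary. Beyond it most points of C11 (red) drop close to 0 on chromosome 1, with exceptions such as Capn2, and to a lower band on chromosome 6, while C1 and 2C2 (blue) continue at the level of the genes before it.

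The total level of most genes tested on this stretch of chromosome 1 was lower in C11, with 77 negative and 3 positive log2 differences. Of 103 genes, 80 were tested and 58 were called, all lower, with a median log2 difference of -0.97 over the 80. DNA was not analysed here, and copy number as the cause was not tested for this stretch or that of chromosome 6. Counts of each genome, in the 52 genes with enough of them, had a median log2 difference of -5.87 for domesticus, with all 52 lower, and of 0.04 for Castaneus, where 50 of 52 lay within 0.5 of 0. The summed level was 6142, 5627, 6434 and 5890 CPM in C1 and 2C2 and 2934 and 2782 in C11. Both C11 libraries were below the lowest of the others, and the groups did not overlap. The allelic test called 58 of the 68 genes of this stretch that had enough allelic counts to be tested, beside 171 of 12158 over all genes (1.41%). The stretch was bounded by the same shift in share, so this count is partly fixed by that choice. Without C11 NoDox or C11 Dox, edgeR called 0 genes of the stretch by total level (64 and 62 at unadjusted p under 0.05, and DESeq2 called 63 with all libraries), while the allelic test still called 45 in each case.

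Enah, an actin regulator of cell protrusions and the most abundant of the 5 named here, was at 2086, 1673, 2090 and 1804 CPM in C1 NoDox, C1 Dox, 2C2 NoDox and 2C2 Dox and at 729 and 643 in C11. Both C11 libraries were far below the others, a log2 difference of -1.48 (SE 0.07, edgeR adjusted p 0.00166), which is beyond the median of the stretch, and the share of Enah was 0.0029 and 0.0032 in C11 against 0.636 to 0.660. Hhat, the acyltransferase of Hedgehog proteins, differed by -1.61 (SE 0.15), Susd4, a complement regulator, by -1.43 (SE 0.16), Slc30a1, a zinc exporter, by -1.40 (SE 0.15), and Ptpn14, a tyrosine phosphatase, by -1.34 (SE 0.09). All 5 had both C11 libraries below the other 4. Lbr, the lamin B receptor and a reported partner of Xist, stood at 152, 128, 169 and 151 CPM in C1 and 2C2 and at 67.7 and 67.3 in C11 (log2 -1.15, SE 0.10, adjusted p 0.00556 in edgeR). Its C11 values were below all others, and its share was 0.555, 0.544, 0.503 and 0.554 in the others and 0.0062 and 0.0012 in C11. Of the 52 genes, 44 had a share of 0.05 or less in both C11 libraries and 6 had more than 0.05 in both. These 6 were Capn2, Bpnt1, Vash2, Dusp10, Nek2 and Hhat, with 0.195 and 0.0750 for Hhat. Capn2, a calpain protease, had a share of 0.693, 0.730, 0.717 and 0.644 against 0.302 and 0.351. Capn2 was called by level (log2 -0.76, SE 0.14, adjusted p 0.04 in edgeR), but not without C1 NoDox, 2C2 NoDox or 2C2 Dox (0.0867, 0.0767 and 0.0625). Capn2, Bpnt1, Vash2, Dusp10 and Nek2 were chosen after their values were seen. Without either C11 library none of the 5, nor Lbr or Capn2, was past the threshold in edgeR, though all 5 had an unadjusted p under 0.05 and DESeq2 called all 5 with every library.

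**Figure D2:**
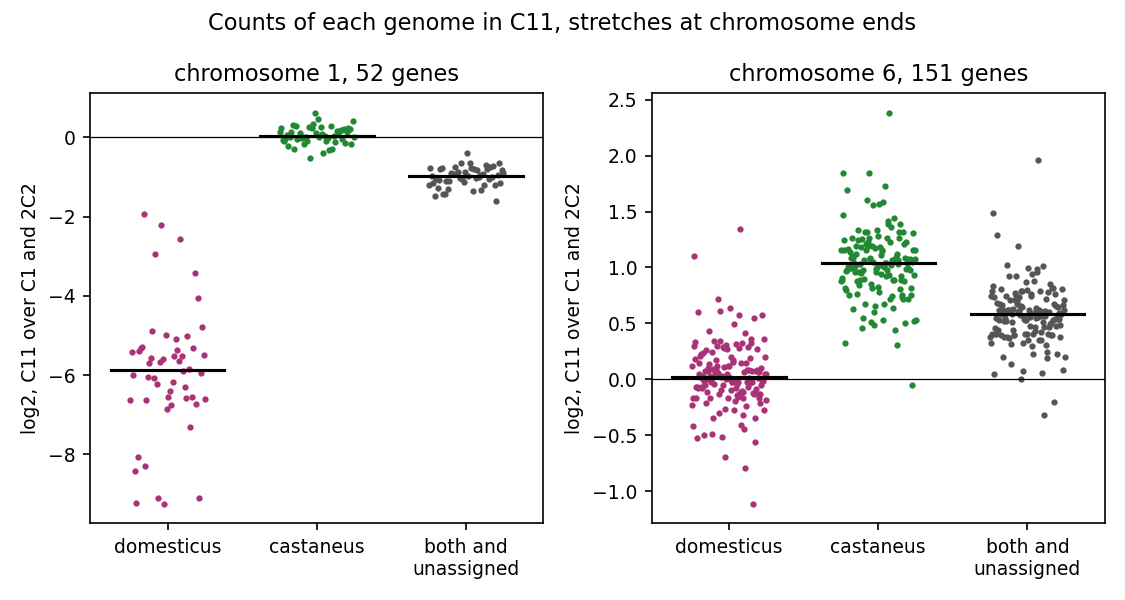
Log2 difference between C11 and the clones C1 and 2C2 for each gene of the stretches beyond the boundaries, for counts of domesticus, counts of Castaneus and all counts of the gene. Each dot is a gene and the black bar is the median. On chromosome 1 the domesticus dots are far below 0 and the Castaneus dots lie around it. On chromosome 6 the domesticus dots lie around 0 and the Castaneus dots around 1.

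On chromosome 6 the opposite genome moved, and upward. The boundary lay between Ift122, a component of cilia transport that ends at 115926699, and Tmcc1, a membrane protein that starts at 116018617 (mm10): 1 of 364 genes before it was shifted, and 113 of 151 beyond it. The share of Tmcc1 was 0.553, 0.554, 0.557 and 0.571 in C1 NoDox, C1 Dox, 2C2 NoDox and 2C2 Dox and 0.374 and 0.367 in C11, below all 4 in both states. Pooled over all 410 genes of the stretch, the share was 51.6%, 51.9%, 51.8% and 52.0% in C1 and 2C2 and 35.1% and 35.0% in C11. Counts of Castaneus were higher by a median log2 of 1.04, with 150 of 151 genes higher, and counts of domesticus by 0.02. Of 410 genes of the stretch 224 were tested and 93 were called, all higher, with a median of 0.57. The summed level was 10729, 10670, 11179 and 10809 CPM in C1 and 2C2 and 15980 and 15768 in C11, so that both C11 libraries were above all others. The allelic test called 89 of 172 genes, and 34 and 30 without C11 NoDox and without C11 Dox, beside 171 of 12158 over all genes, and 83 and 75 genes in all without those libraries. Here too the stretch was bounded by the shift in share. By total level edgeR called 36 genes of the stretch without C1 NoDox, 57 without 2C2 Dox, and 0 without either C11 library (115 and 118 at unadjusted p under 0.05, and 112 by DESeq2 with all libraries).

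Genes called on this stretch of chromosome 6 include receptors, enzymes and chromatin proteins. Gpr19, an orphan receptor, was at 57.7, 62.7, 52.0 and 62.0 CPM in C1 and 2C2 and at 117 and 115 in C11 (log2 0.99, SE 0.08, edgeR adjusted p 0.00505). Both C11 libraries were well above the other 4. Pianp, a ligand of an immune receptor, was higher by 1.44 (SE 0.22) at no more than 2.08 CPM, Ptms, parathymosin, by 1.20 (SE 0.14), Eno2, the neuronal enolase, by 1.03 (SE 0.20), A2m, a protease inhibitor, by 1.02 (SE 0.12), and Rerg, a Ras-like protein, by 1.01 (SE 0.17). Of these 6, edgeR called 3 without C1 NoDox (not Pianp, Eno2 or Rerg), 5 without C1 Dox (not Eno2), 4 without 2C2 NoDox (not Pianp or Rerg), 4 without 2C2 Dox (not Pianp or Eno2) and 0 without either C11 library (6 at unadjusted p under 0.05 in each case, and 6 by DESeq2 with all libraries). Aebp2 and Phc1, cofactors of Polycomb complexes 2 and 1, rose by 0.72 (SE 0.07) and 0.62 (SE 0.11), and Tead4, a factor of the trophectoderm, by 0.59 (SE 0.11). Nanog, the naive pluripotency factor, lies on the same stretch, and its share went from 0.254, 0.319, 0.268 and 0.300 to 0.174 and 0.197, lower in both C11 libraries. Its level was 79.0, 68.8, 88.4 and 88.8 CPM against 85.3 and 93.3, with overlap and no call (log2 0.14, SE 0.12, adjusted p 0.584 in edgeR). Gdf3, a TGF-beta family ligand close to Nanog, did rise, from 26.1, 22.5, 28.6 and 29.4 to 43.6 and 43.6 CPM (log2 0.71, SE 0.12). Dppa3, another neighbour, was at 5.30, 5.30, 3.58 and 3.40 against 5.17 and 5.80 CPM, with overlap and no call. The allelic test did call Nanog and Dppa3 (log2 odds -0.81 and -1.46, adjusted p 0.00399 and 0.0423 in edgeR). Nanog, Gdf3 and Dppa3 were chosen after their values were seen. Aebp2, Phc1, Tead4 and Gdf3 were not past the threshold in edgeR without C11 NoDox or without C11 Dox. Tead4 had an adjusted p of 0.117, 0.0745 and 0.0822 without C1 NoDox, C1 Dox and 2C2 NoDox, Gdf3 of 0.086 and 0.0505 without C1 NoDox and 2C2 NoDox, and Phc1 of 0.067 without 2C2 Dox.

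A second, small place on chromosome 6 stood out before the boundary. Shq1, an assembly factor of box H/ACA ribonucleoproteins, was the single shifted gene there, with shares of 0.574, 0.555, 0.579 and 0.596 in C1 and 2C2 against 0.394 and 0.417 in C11, and levels of 127, 134, 109 and 113 CPM against 172 and 179. Ppp4r2, a regulatory subunit of protein phosphatase 4 close beside it, was at 127, 119, 125 and 118 CPM against 195 and 189, with shares of 0.652, 0.584, 0.656 and 0.613 against 0.538 and 0.496. For both genes the C11 libraries were above the other 4 in level and below them in share. The log2 differences were 0.54 (SE 0.10, edgeR adjusted p 0.0386) and 0.65 (SE 0.06, adjusted p 0.00617), and the allelic test called both. The neighbours on either side were not called in level or share. Rybp, a Polycomb protein, was at 413, 427, 445 and 461 CPM against 473 and 487 with a share of 0.527, 0.522, 0.533 and 0.513 against 0.537 and 0.509, so its level in C11 was slightly above the others and its share was not. Pdzrn3, a ubiquitin ligase, was at 52.7, 64.2, 33.6 and 44.6 CPM against 46.9 and 47.2, with a share of 0.448, 0.482, 0.496 and 0.511 against 0.427 and 0.411. Its level overlapped, and its share was below the others in both C11 libraries. Without clone C1, Pdzrn3 was called higher in C11 (log2 0.27, adjusted p 0.0347 in edgeR). Ppp4r2, Rybp and Pdzrn3 were chosen after their values were seen. Shq1 was past the threshold by level only without C1 Dox among the libraries left out in turn (adjusted p 0.0348 there, and 0.0666, 0.0633 and 0.072 without C1 NoDox, 2C2 NoDox and 2C2 Dox, all in edgeR), and without C11 NoDox or C11 Dox it was 0.51 and 0.472, and for Ppp4r2 0.257 and 0.239.

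In autosomal windows even between the clones 12961 genes were tested, with a median log2 difference of 0.01. C11 differed from C1 and 2C2 in 225 of them, 120 higher and 105 lower. Of these, 45 differed by a log2 of 1 or more. By chromosome the share called ran from 1.03% on chromosome 7 to 4.6% on chromosome 6, where 15 of the 25 calls lie beyond the boundary although their window counted as even. With the stretches taken from the gene where the share shifts, 211 of 12947 genes outside were called, 105 higher and 106 lower. The 225 became 42 without C1 NoDox, 114 without C1 Dox, 109 without 2C2 NoDox, 115 without 2C2 Dox and 0 without either C11 library in edgeR (800 and 939 at unadjusted p under 0.05), and DESeq2 called 536 with all libraries.

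The genes that rose most in the even autosomal windows have varied functions. Tmem132d, a transmembrane protein of neural cells, was at 89.4, 32.8, 117 and 56.8 CPM in C1 NoDox, C1 Dox, 2C2 NoDox and 2C2 Dox and at 292 and 165 in C11 (log2 1.69, SE 0.21, edgeR adjusted p 0.0129). Both C11 libraries were above all others, and the Dox library was the lower in every clone. Zfp521, a zinc finger regulator of progenitor cells, was at 10.7, 10.7, 11.4 and 13.8 CPM against 35.7 and 39.4 (log2 1.69, SE 0.12, adjusted p 0.00442), without overlap. March4, a membrane ubiquitin ligase, was higher by 1.88 (SE 0.21), from at most 1.59 CPM in the others to 4.59 and 3.63. Tgfbi, an extracellular matrix protein, was higher by 1.76 (SE 0.25), from 0.581, 0.937, 1.03 and 0.795 CPM to 3.05 and 2.61. Higher also were Kcnmb2, a potassium channel subunit, by 1.41 (SE 0.17), Foxn4, a forkhead factor, by 1.35 (SE 0.20), and Inhbb, a subunit of activins, by 1.40 (SE 0.21), from 0.581, 1.01, 0.626 and 0.795 CPM to 1.62 and 2.36. Tgfbi and Inhbb were close to or under 1 CPM in every library of C1 and 2C2. Rassf4, a Ras-association protein, and Cacna1c, a calcium channel, were higher by 1.49 (SE 0.13) and 1.29 (SE 0.14), but both lie beyond the boundary on chromosome 6. Cacna1c was at 12.7, 13.8, 9.75 and 12.5 CPM against 31.4 and 28.1, with a share of 0.442, 0.408, 0.377 and 0.454 against 0.266 and 0.241, so both its level and its share set C11 apart. Of these 9 and Oca2, edgeR called 7 without C1 NoDox (not Inhbb, Foxn4 or Oca2), 9 without 2C2 Dox (not Inhbb) and 0 without either C11 library (10 at unadjusted p under 0.05 in each case, and 10 by DESeq2 with all libraries).

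The genes that fell most there have varied functions too. Txlnb, a taxilin of muscle, was at 28.2, 29.5, 23.8 and 21.1 CPM in C1 and 2C2 and at 9.38 and 8.74 in C11 (log2 -1.50, SE 0.17, edgeR adjusted p 0.00948). Nlrp4f, a member of a family of innate immune receptors expressed in oocytes, was at 134, 118, 145 and 126 CPM against 65.2 and 62.7 (log2 -1.03, SE 0.08, adjusted p 0.00505). For both genes the C11 libraries were less than any of the other 4 and close to each other. Cpne8, a copine, was at 58.9, 68.2, 46.9 and 50.2 CPM against 23.3 and 24.4 (log2 -1.23, SE 0.16) with 2C2 between C1 and C11 in both states. Foxp2, the forkhead factor known for its part in speech, was lower by -1.18 (SE 0.19). Slc40a1, the iron exporter ferroportin, was lower by -1.38 (SE 0.26), Robo4, a receptor of endothelium, by -1.31 (SE 0.16), Mypn, a sarcomere protein, by -1.26 (SE 0.16), Dcdc2a, a doublecortin family protein, by -1.11 (SE 0.13), Gstm2, a glutathione transferase, by -1.09 (SE 0.20) and Atp8b4, a phospholipid transporter, by -1.08 (SE 0.17). The shares of these 10 genes were not called different by the allelic test. Gstm2 and Nlrp4f have close relatives in the genome, so their counts are uncertain. Of the 10, edgeR called 6 without C1 NoDox (not Slc40a1, Foxp2, Gstm2 or Atp8b4), 9 without C1 Dox (not Gstm2), 8 without 2C2 NoDox (not Slc40a1 or Gstm2), 8 without 2C2 Dox (not Gstm2 or Atp8b4) and 0 without either C11 library (10 at unadjusted p under 0.05 in each case, and 10 by DESeq2 with all libraries).

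**Figure D3:**
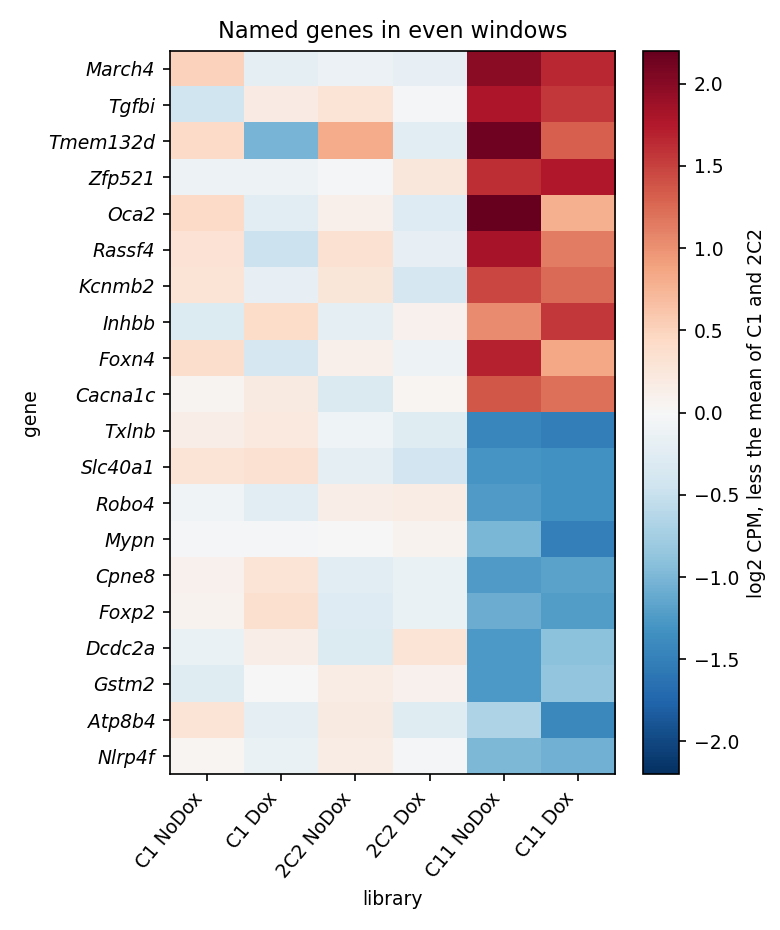
Levels of the 10 genes that rose most and the 10 that fell most in windows even between the clones, as log2 CPM less the mean of the 4 libraries of C1 and 2C2. The columns are libraries. The 2 columns of C11 are red for the upper 10 genes and blue for the lower 10. Tmem132d, Oca2, Rassf4 and Foxn4 are paler in C11 Dox than in C11 NoDox.

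The allelic test asks whether the share itself differs, whatever the level. It called 171 of 12158 genes (1.41%), 165 of them with a lower domesticus share in C11. With the stretches taken from the gene where the share shifts, 20 of 10440 genes outside were called, 6 with a higher and 14 with a lower share. These 20 became 7 without C1 NoDox, 10 without C1 Dox, 10 without 2C2 NoDox, 12 without 2C2 Dox, 3 without C11 NoDox and 0 without C11 Dox in edgeR (331 at unadjusted p under 0.05, no other tool was run on shares). Oca2, a transporter of the melanosome known for pigment variants, was the exception among the 10 genes named by share, being on chromosome 7. Its share was 0.606, 0.750, 0.520 and 0.800 in C1 NoDox, C1 Dox, 2C2 NoDox and 2C2 Dox, and 0.0732 and 0.277 in C11 (log2 odds -3.63, SE 0.36, edgeR adjusted p 0.00477). Its level was 2.13, 1.30, 1.70 and 1.26 CPM against 8.45 and 2.76 (log2 1.68, SE 0.25, adjusted p 0.0217), so both C11 libraries had more Oca2 RNA and its allelic counts were mostly Castaneus. The other 9 genes named by this rule were all on chromosome 6. All of them but Shq1 lay on the stretch beyond the boundary, although their windows counted as even. Genes named elsewhere in the text that were also called by share include Lama1 on chromosome 17, Mid1 on the X chromosome and Ppp4r2. They also include genes of the stretches such as Hhat, Cacna1c, Nanog and Dppa3. Erc1, a scaffold of vesicle release sites, had shares of 0.492, 0.495, 0.512 and 0.493 against 0.316 and 0.327, and Fam21, a WASH complex subunit, 0.489, 0.471, 0.471 and 0.485 against 0.304 and 0.313. Both were lower in both C11 libraries. Zfand4, Tmcc1, Zfp248, March8, Bms1 and Ankrd26 had log2 odds between -1.32 and -1.04, and Shq1 was described above. Of the 10 genes named by share, the allelic test called 9 without C1 NoDox. It called 8 without C1 Dox, 8 without 2C2 NoDox and 8 without 2C2 Dox. Oca2 and Shq1 were past the threshold each time. Genes of the 10 other than Oca2 and Shq1 were also lost without C11 NoDox and without C11 Dox. The allelic test called 83 genes without C11 NoDox and 75 without C11 Dox, and Oca2 was not among them (adjusted p 0.202 and 0.0637 in edgeR), nor was Shq1 (0.0953 and 0.0651).

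Mid1, on the X chromosome, was the gene that set C11 apart most. It encodes a ubiquitin ligase of microtubules, lies near the pseudoautosomal boundary, and was chosen after its values were seen. Its level was 526, 576, 560 and 613 CPM in C1 NoDox, C1 Dox, 2C2 NoDox and 2C2 Dox and 9418 and 10350 in C11 NoDox and Dox (log2 4.12, SE 0.07, edgeR adjusted p 1.86e-06). The 2 C11 libraries were alike and stood far above the other 4, which were also alike. Mid1 took 0.936% and 1.04% of all counts on genes in C11 and was the most abundant gene there, while in C1 and 2C2 it ranked between 205 and 284. In the 6 libraries of the series outside this comparison it had 496 to 633 reads per 1000000 counts, so that high level was seen in none of the other 10. Nearly all its allelic counts were Castaneus in every library: the domesticus share was 0.0109, 0.0098, 0.0054 and 0.0074 against 0.0022 and 0.0022. The allelic test called this difference too (log2 odds -1.92, SE 0.23, adjusted p 0.0114). Shares near 0 were not particular to Mid1. In all X windows from position 110000001 on, the median share was 0.0686 or less in every library. Mid1 was past the threshold under all 16 alternatives, with a log2 difference of 4.07 to 4.17, and was the 1 gene called without C11 NoDox and the 1 gene called without C11 Dox.

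No gene beside Mid1 was called. Hccs, a heme lyase of mitochondria, was at 65.1, 47.7, 83.0 and 58.2 CPM in C1 and 2C2 and 67.8 and 50.9 in C11, and Msl3, a chromatin protein, at 20.8, 22.1, 21.2 and 22.5 against 23.0 and 22.9. Arhgap6, a GTPase activator, was at 79.2, 76.4, 54.4 and 49.3 against 51.3 and 41.8. C11 overlapped the others for Hccs and Arhgap6, and for Msl3 it lay just above them, and none was called (log2 -0.09, 0.08 and -0.48, SE 0.12, 0.08 and 0.21). Frmpd4, a scaffold protein of synapses, was at 12.5, 10.8, 13.2 and 11.9 reads per 1000000 counts against 10.5 and 8.23, below the others in both C11 libraries but not called (log2 -0.37, SE 0.11, adjusted p 0.139 in edgeR). All 4 were chosen after their values were seen, and their allelic counts were also mostly Castaneus in all 6 libraries. Of 2 predicted genes on the other strand within Mid1, 1 was above the others in both C11 libraries, at 2.37, 1.60, 2.00 and 1.50 reads per 1000000 counts against 2.76 and 3.28 (log2 0.71, SE 0.22, adjusted p 0.145 in edgeR). The other had fewer than 1 read per 1000000 counts in every library (log2 1.11, SE 0.69, adjusted p 0.443 in edgeR).

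**Figure D4:**
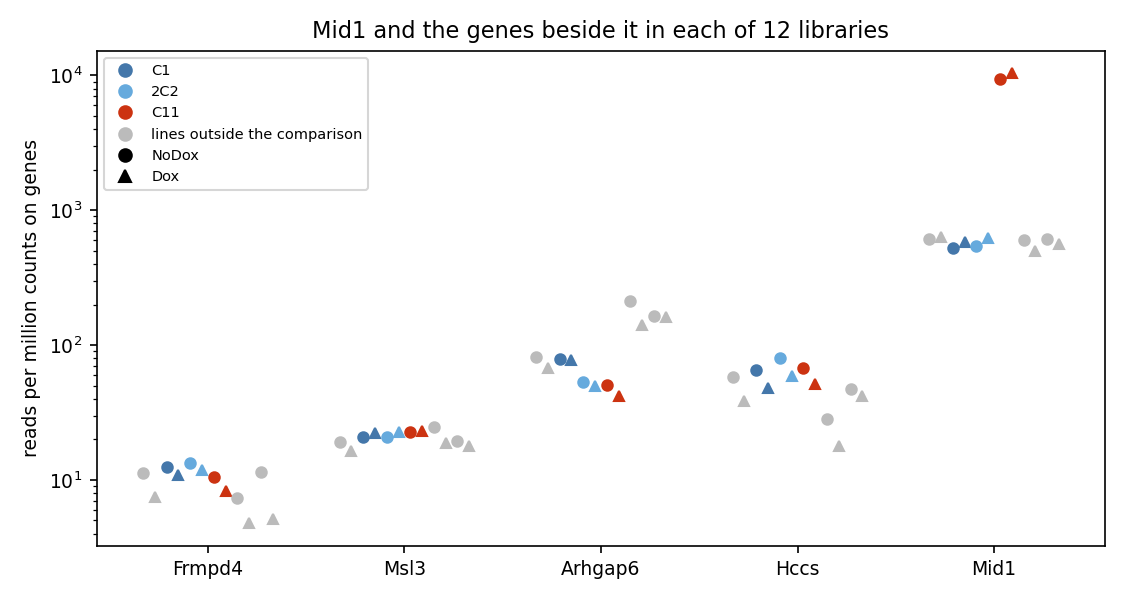
Reads per 1000000 counts on genes of Mid1 and 4 genes beside it in all 12 libraries of the series, on a log scale. Circles are NoDox and triangles Dox, and colour marks the clone. The red points of C11 stand above the rest for Mid1 and lie among or close to the rest for Frmpd4, Msl3, Arhgap6 and Hccs.

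The rest of the X chromosome leaned the other way. Of 602 X-linked genes tested 35 were called, 31 lower and 4 higher, and the median log2 difference was -0.11 beside 0.01 for genes in even autosomal windows, with 390 negative and 212 positive. The calls were on both sides of Xist, 21 of 366 genes on the centromeric side and 14 of 235 on the telomeric side. Nxf3, a tissue-specific RNA export factor, was at 46.3, 44.5, 30.7 and 29.2 CPM in C1 and 2C2 against 14.2 and 13.2 (log2 -1.46, SE 0.23, edgeR adjusted p 0.0268). Zfp711, a zinc finger protein, was at 64.5, 47.0, 48.4 and 36.8 against 26.4 and 21.4 (log2 -1.03, SE 0.15, adjusted p 0.0223). In both, C11 was lowest and 2C2 was between C11 and C1 in each state. Slc9a7, a sodium and proton exchanger, was lower by -0.91 (SE 0.12). Atrx, a chromatin remodeller, was at 2391, 2214, 2277 and 1922 CPM against 1681 and 1519 (log2 -0.46, SE 0.08, adjusted p 0.0378), without overlap. The 4 that were higher included Gpc4, a glypican, at 135, 153, 129 and 160 against 234 and 234 (log2 0.71, SE 0.08), and Eras, a Ras protein of embryonic stem cells, with 0.76 (SE 0.15), beside Mid1 and Kis2. These X-linked genes were chosen after their values were seen. In place of 35, edgeR called 10 without C1 NoDox, 23 without C1 Dox, 23 without 2C2 NoDox and 19 without 2C2 Dox, and 1, Mid1, without either C11 library, and DESeq2 called 66 with all libraries. Eras and Atrx were past the threshold in few of these settings: the adjusted p of Eras was 0.123, 0.0677, 0.0718 and 0.0599 without C1 NoDox, C1 Dox, 2C2 NoDox and 2C2 Dox, and that of Atrx 0.0989, 0.0734 and 0.0509 without C1 NoDox, C1 Dox and 2C2 Dox, all in edgeR. For Nxf3 it was 0.0511 without C1 NoDox.

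Xist itself was not called different in C11 with Dox state as the other term, but was under 3 alternatives. It was at 123 and 1528 CPM in C1 NoDox and Dox, 129 and 1250 in 2C2, and 159 and 1593 in C11 (log2 0.27, SE 0.10, edgeR adjusted p 0.196). C11 was the highest in each state by a small margin, and each clone had a high Dox library and a low NoDox library. In edgeR the adjusted p was 0.000693 with each clone its own term, 0.00108 without clone C1 and 0.00139 without clone 2C2. Tsix, its antisense partner, was at 564, 459, 552 and 456 CPM against 590 and 532 (log2 0.15, SE 0.07, adjusted p 0.293). Among the 8 genes of the X inactivation centre that were tested, 1 was called, where 3.09% of all genes and 5.81% of X-linked genes were: Ftx, a noncoding neighbour of Xist, at 195, 229, 194 and 202 CPM against 152 and 133 (log2 -0.52, SE 0.10, adjusted p 0.0472). Its C11 libraries were below the other 4. Jpx, a noncoding activator of Xist, was at 6.66, 9.48, 5.05 and 5.89 CPM against 3.05 and 2.43 and missed the threshold in edgeR (log2 -1.30, SE 0.28, adjusted p 0.0636), although the libraries did not overlap. Rlim, the ubiquitin ligase that acts on the Xist repressor Rex1, was at 928, 679, 933 and 589 against 745 and 412 (log2 -0.47, SE 0.10, adjusted p 0.0591). Rlim was lower in C11 in each state. DESeq2 called Jpx, Ftx and Rlim. Without C1 Dox the adjusted p of Jpx was 0.0465 in edgeR. Ftx was not past it without any 1 of the 6 libraries (0.0964, 0.0576, 0.065 and 0.0758 without C1 NoDox, C1 Dox, 2C2 NoDox and 2C2 Dox, in edgeR). Jpx and Rlim were chosen after their values were seen.

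Most lists of marker and pathway genes held few calls. Over all 15130 genes tested, 3.09% were called, 7646 had a negative log2 difference and 2857 had an unadjusted p under 0.05, and DESeq2 called 898. Of the 12 germline and methylation-sensitive genes all had a negative log2 difference, with a median of -0.56, and 2 fell: Sycp1, of the synaptonemal complex, at 107, 107, 87.8 and 82.5 CPM in C1 and 2C2 against 56.4 and 54.5 (log2 -0.79, SE 0.13, edgeR adjusted p 0.030), and Stk31, a germ cell kinase, at 59.0, 71.8, 55.0 and 65.0 against 34.4 and 42.9 (log2 -0.70, SE 0.08, adjusted p 0.011). Both were below all others in C11. The 12 summed to 349, 360, 269 and 268 CPM against 191 and 202, so C1 was highest, 2C2 between and C11 lowest. Rhox5, an X-linked homeobox gene of this list, ran from 51.1 and 47.2 in C1 to 21.7 and 20.1 in 2C2 and 14.5 and 14.8 in C11, and was not called (log2 -1.26, SE 0.44, adjusted p 0.186). Dazl, an RNA-binding protein of germ cells, was at 39.6, 27.9, 35.5 and 25.2 against 23.5 and 21.0 (log2 -0.50, SE 0.11, adjusted p 0.071). Each of its C11 libraries was below all of C1 and 2C2. Rhox5 and Dazl were chosen after their values were seen. Sycp1 had an adjusted p of 0.0723 without C1 NoDox, and neither call of this list held without C11 NoDox or C11 Dox in edgeR (8 of the 12 had an unadjusted p under 0.05 with all libraries, and DESeq2 called 3).

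Lists of cell state held 0 or 1 call each in edgeR, beside 3.09% called, 2857 of 15130 at unadjusted p under 0.05 and 898 called by DESeq2 over all genes. Of 9 general pluripotency genes 1 rose, Lin28a, the RNA-binding protein that blocks let-7, at 34.4, 28.6, 35.1 and 31.5 CPM against 46.2 and 48.6 (log2 0.56, SE 0.09, edgeR adjusted p 0.0311), without overlap. Of 15 naive genes edgeR called 0 (4 at unadjusted p under 0.05, 0 by DESeq2), with a median of 0.18, and Esrrb, a nuclear receptor of that state, was at 411, 429, 450 and 510 CPM against 586 and 521. Esrrb in C11 was above the rest but not called. Of 11 primed genes edgeR called 0 (2 at unadjusted p under 0.05, and 1, Otx2, by DESeq2). Otx2, a homeobox factor, was at 32.4, 27.7, 20.5 and 19.6 against 16.1 and 14.4. Of 9 genes of the 2-cell-like state edgeR called 0 (4 at unadjusted p under 0.05, 0 by DESeq2), with a median of 0.53. In that list 8 were positive and 1, Zfp809, was negative (log2 -0.20, SE 0.07, adjusted p 0.203 in edgeR). The list summed to 138, 124, 162 and 141 CPM against 136 and 139, with overlap, and Zfp809, a zinc finger repressor, made up most of it in every library. Zscan4d, another gene of the list, was at 3.21 and 2.63 CPM in C1, 6.21 and 5.93 in 2C2 and 5.86 and 7.11 in C11, where C11 overlapped 2C2 and only C1 was lower. Zfp352 was at 2.8, 1.9, 5.2 and 5.2 CPM in C1 and 2C2 against 6.1 and 9.8. It was not called (log2 1.08, SE 0.41, adjusted p 0.214 in edgeR). Tcstv1 and Tcstv3, at no more than 1.63 CPM, were also above the others in both C11 libraries and not called. Of 12 primitive endoderm genes 1 rose, Lama1, a laminin chain, at 258, 293, 248 and 334 CPM against 342 and 454 (log2 0.49, SE 0.08, adjusted p 0.0275), just clear of the others. In that list 6 of 12 had an unadjusted p under 0.05, 10 were positive and the median was 0.29. The allelic test also called Lama1, with a higher domesticus share in both C11 libraries. Its share was 0.4365, 0.433, 0.4298 and 0.4262 against 0.4812 and 0.4781 (log2 odds 0.28, SE 0.04, adjusted p 0.0222 in edgeR). Of 6 trophectoderm genes 1 rose, Tead4 on chromosome 6 (3 at unadjusted p under 0.05, and 1 by DESeq2), with 4 positive, 2 negative and a median of 0.16. The 2 negative ones were Krt8 and Krt18, keratins of simple epithelia, with -0.62 (SE 0.17) and -0.73 (SE 0.17), not called though both C11 libraries were below the other 4. Of 9 mesoderm genes 1 fell, Lefty2, a Nodal antagonist, with -0.47 (SE 0.09), in a window of chromosome 1 before the boundary. Pax6, the 1 neurectoderm gene that DESeq2 called, was at 4.03, 3.39, 4.79 and 5.68 against 7.91 and 7.47, where edgeR called 0 of 4 (2 at unadjusted p under 0.05). Of 12 fibroblast genes edgeR called 0 (4 at unadjusted p under 0.05, 2 by DESeq2), with a median of -0.34. Lin28a, Lama1 and Lefty2 were not past the threshold in edgeR without C11 NoDox or without C11 Dox. Without C1 NoDox their adjusted p was 0.0843, 0.0707 and 0.12 in edgeR, and Lin28a also missed it without C1 Dox, 2C2 NoDox or 2C2 Dox (0.0505, 0.0505 and 0.067), Lama1 without 2C2 NoDox (0.0503) and Lefty2 without C1 Dox or 2C2 NoDox (0.0868 and 0.0799). Pax6 passed it without 2C2 Dox (0.0495). Esrrb, Otx2, Pax6, Zfp809, Zscan4d, Zfp352, Tcstv1, Tcstv3, Krt8 and Krt18 were chosen after their values were seen.

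Chromatin and growth lists held 0 to 3 calls each in edgeR, beside the same 3.09% called, 2857 of 15130 at unadjusted p under 0.05 and 898 called by DESeq2 over all genes. Of 19 Xist partner proteins 2 fell, Lbr on the stretch of chromosome 1 and Pcgf5, a subunit of the Polycomb complex 1 that Xist recruits, at 45.0, 56.9, 44.4 and 55.1 CPM against 33.5 and 40.8 (log2 -0.44, SE 0.07, edgeR adjusted p 0.0293). Pcgf5 was below the others in C11 in both states, and its share did not set C11 apart. Of 19 Polycomb genes 3 were called, Aebp2 and Phc1 as above and Ezh1, a methyltransferase of histone H3, which fell from 34.2, 44.0, 34.4 and 41.2 to 22.2 and 24.1 (log2 -0.72, SE 0.09, adjusted p 0.0118). Ezh1 lies on chromosome 11, in a window where C1 and 2C2 are displaced in opposite directions: its share was 0.741 and 0.717 in C1, 0.420 and 0.413 in 2C2, and 0.580 and 0.519 in C11. Its C11 level was below that of both. Of 17 cell cycle genes 1 fell, Top2a, the DNA topoisomerase of dividing cells, also on chromosome 11, at 903, 890, 976 and 881 CPM against 650 and 665 (log2 -0.47, SE 0.07). C11 was again lowest, and the share of Top2a was 0.663 and 0.661 in C1, 0.329 and 0.335 in 2C2 and 0.485 and 0.491 in C11. For Ezh1 and Top2a a change of C11 cannot be told apart from changes of both other clones. DESeq2 called 4 of the Polycomb genes and 2 of the cell cycle genes. Its further ones were Yaf2, a partner of Polycomb complex 1, at 53.1, 66.3, 42.5 and 49.4 CPM against 33.1 and 34.6 (log2 -0.64, SE 0.15, adjusted p 0.0787 in edgeR), and Cdkn1b, an inhibitor of cyclin-dependent kinases on the stretch of chromosome 6, at 5.77, 5.80, 7.96 and 9.54 against 12.1 and 16.4 (log2 0.96, SE 0.22, adjusted p 0.069 in edgeR). C11 was lowest for Yaf2 and highest for Cdkn1b in both states, and edgeR called neither. Both were chosen after their values were seen. Of 10 DNA methylation genes edgeR called 0 (3 at unadjusted p under 0.05, and 1, Tet2, by DESeq2), of 15 p53 targets 0 (2, and 1, Cdkn1a) and of 9 abundant nuclear RNAs 0 (1, and 0). Of 32 imprinted genes edgeR called 0 (9 at unadjusted p under 0.05, and 5 by DESeq2, among them H19 and Peg10). None of the calls in this paragraph held in edgeR without C11 NoDox or without C11 Dox. Pcgf5 had an adjusted p of 0.0925, 0.0602, 0.0509 and 0.0669 without C1 NoDox, C1 Dox, 2C2 NoDox and 2C2 Dox in edgeR, and Top2a of 0.0651, 0.0505 and 0.0577 without C1 NoDox, C1 Dox and 2C2 Dox. Peg10 passed the threshold without C1 Dox (0.0174) and Phc1 missed it without 2C2 Dox (0.067).

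**Figure D5:**
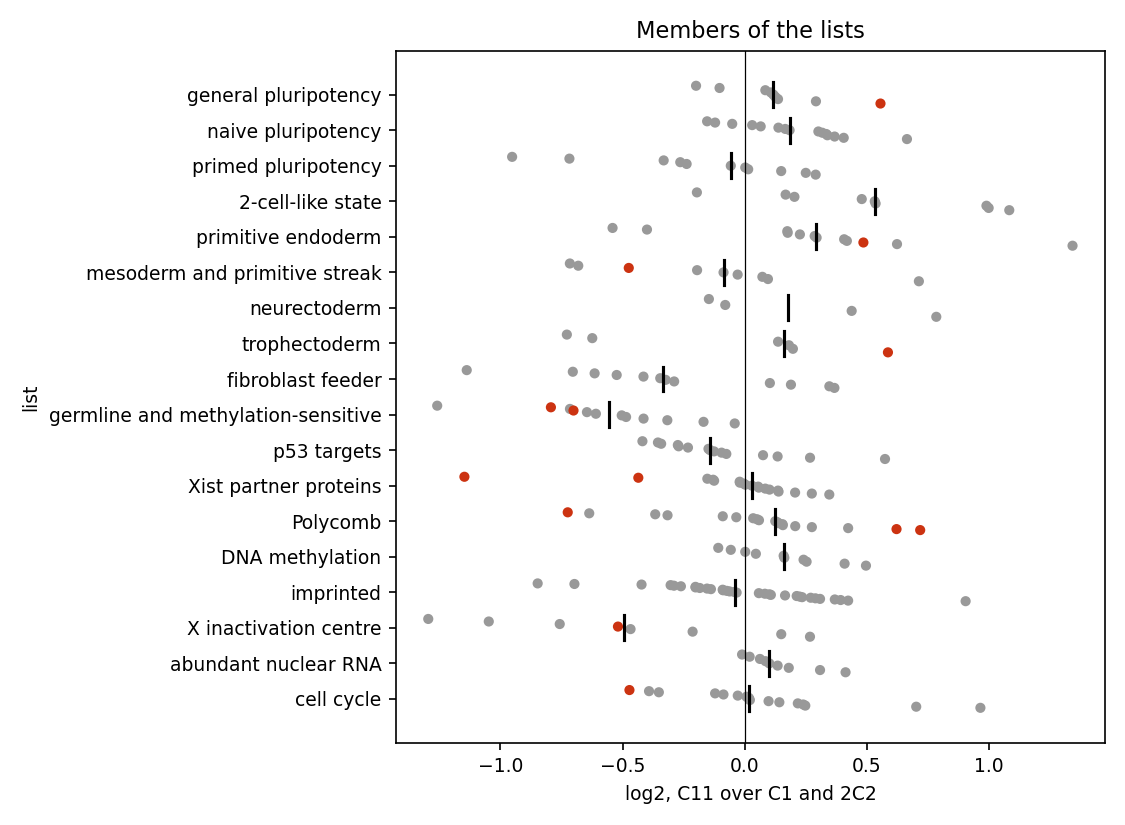
Log2 difference between C11 and the clones C1 and 2C2 for tested members of each list. Each dot is a gene, red where edgeR called it, and the black bar is the median of the list. The germline list lies wholly to the left of 0, and the calls among Polycomb genes fall on both sides.

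On chromosome 11, where C1 and 2C2 differ, C11 was mostly on the lower side. Of 1184 genes tested in those windows 70 were called, 68 lower and 2 higher, with a median log2 difference of -0.25. The 70 became 11 without C1 NoDox, 43 without C1 Dox, 22 without 2C2 Dox and 0 without either C11 library in edgeR (149 and 147 at unadjusted p under 0.05), and DESeq2 called 134 with all libraries. The sum of all chromosome 11 genes was 92876 and 90127 CPM in C1, 72332 and 68872 in 2C2 and 68931 and 68049 in C11. In this sum C1 was high, and C11 lay near 2C2. The windows beyond 100 Mb differed from the rest: there the median share was 0.354 to 0.373 in 2C2, 0.680 to 0.699 in C1 and 0.500 to 0.533 in C11, so both C1 and 2C2 were displaced from C11, in opposite directions. Over 825 genes of the whole chromosome, counts of domesticus had a median log2 difference of -0.35 and those of Castaneus of 0.08. The Castaneus quartiles were -0.18 and 0.24, and these medians join the unlike parts on either side of 100 Mb. The calls in all windows of displaced share, 207 of 1474 genes (14.0%), became 83 without C1 NoDox, 118 without 2C2 Dox and 0 without either C11 library in edgeR (313 and 311 at unadjusted p under 0.05), and DESeq2 called 293 with all libraries.

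C1 and 2C2 differed from each other as well. Between their 4 libraries edgeR called 4548 of 14922 genes (30.5%), and DESeq2 1851. Over 11300 genes of even windows with at least 1 CPM, the log2 difference between C11 and C1 had an SD of 0.37, with 274 genes beyond 1. Between C11 and 2C2 the SD was 0.28, with 75 genes, and between C1 and 2C2 it was 0.30, with 128. By this measure C11 stood nearer to 2C2 than to C1. On the main axis of variation, which held 41.1% of the variance, the 2 libraries of C11 lay at one end, those of C1 at the other and those of 2C2 between them.

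The response to Dox was also set against the clones. In 141 of 15554 genes (0.907%) the change on Dox differed between C11 and the other 2 clones, 43 with a larger and 98 with a smaller value in C11, at 1 residual degree of freedom. DESeq2 called 4. Of the 141, 114 were in even windows and 11 on the X chromosome. Filip1l, a filamin-interacting protein, was at 8.36, 7.96, 8.99 and 5.78 CPM in C1 and 2C2 and at 8.37 and 38.7 in C11 (log2 2.54, SE 0.18, edgeR adjusted p 2.66e-39). C11 Dox alone was high, and its share was 0.0356 against 0.198 to 0.358 elsewhere, so most of its allelic reads there were Castaneus. Trmt10c, a subunit of mitochondrial RNase P on the same chromosome, was at 50.5, 42.3, 86.9 and 59.3 against 55.1 and 77.1 (log2 0.90, SE 0.11, adjusted p 1.91e-13): it was lower on Dox in C1 and 2C2 and higher on Dox in C11. Erbb4, a receptor tyrosine kinase, had a smaller value in C11 (log2 -0.79, SE 0.17, adjusted p 0.00204), with 17.7, 19.2, 16.4 and 36.7 against 13.0 and 11.8. Here 2C2 Dox was the high library. These 3 genes were chosen after their values were seen, and each rests on single libraries of a state.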

How the data were processed

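Chromatin-associated RNA of 12 samples was measured, and 6 were used here. The deposited values are counts of read pairs per gene, whole transcripts with introns, strand-specific, for all reads and for each parental genome. The authors made these counts with featureCounts 1.5.2 on mm10, and the submitters' processing notes also name Bowtie2 2.3.2 and STAR 2.4.2a. Depth was 22949578 to 27489603 counts on genes per library, of which 44.6% to 47.1% were allelic, and a gene with 100 counts has a sampling error of 10%.

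Levels were tested with edgeR 4.0.16 in R 4.3.3 (quasi-likelihood, TMM factors 0.975 to 1.01, filterByExpr with a minimum count of 10, Benjamini-Hochberg threshold 0.05, terms Dox and C11, 3 residual degrees of freedom). Other tools were DESeq2 1.42.0, limma 3.58.1, Python 3.11.15 and scipy 1.17.1. Shares were tested with edgeR on both allelic counts of each library, in genes averaging 20 or more, with library, allele, allele by Dox and allele by C11 as terms. Windows of 10 Mb with at least 10 genes were called displaced when the median share of both C11 libraries lay at least 0.08 to one side of all others. The code was tested on simulated data.

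Genes named are Xist and Tsix, up to 10 higher and 10 lower in even windows by log2 difference (threshold passed, mean of at least 1 CPM, C11 libraries apart), up to 6 in each displaced segment, up to 10 by share difference, and list members past the threshold. Predicted genes were counted only, and 1 gene that met the rule is not reported here. Members, windows and lists were chosen with earlier results of these data known. Alternatives were other normalizations, filters, designs, windows and samples, and each library left out in turn.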

Additional observations from a re-analysis of the deposited data

Results flagged for a closer look

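The number of genes with a count was 18048 in 2C2 NoDox, far from the other 5 libraries. March4 was at 1.588 CPM in C1 NoDox, far from the other 3 libraries of C1 and 2C2. Chance gives about 1 such value in 20 groups, and 109 measures were looked at.

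The change on Dox differed between C11 and the other clones, by a test of the difference, in 141 genes by edgeR and in 4 by DESeq2. C11 has 1 library in each state and the fit has 1 residual degree of freedom, so no replicate of C11 stands behind these values. Among named genes these were Filip1l (log2 2.54), Trmt10c (0.90), Tmem132d (0.41, SE 0.10, edgeR adjusted p 0.00886), Susd4 (-0.67, SE 0.18, adjusted p 0.0274) and Erbb4 (-0.79). Susd4 was at 20.6 and 28.7 CPM in C1, 20.0 and 30.2 in 2C2 and 9.49 and 8.63 in C11, so it was higher on Dox in C1 and 2C2 and not in C11.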

How the results depend on the processing

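Direction was kept in all 51 called genes that met the naming rule under every alternative that gave them a value. Normalization and filters left 426 to 475 genes called in place of 468. The number called was 898 with DESeq2, 4067 with each clone its own term, 204 with no Dox term, 256 with all 12 libraries in one fit, 2291 without clone C1, 5296 without clone 2C2, and 1 to 304 without each library in turn. Outside altered segments, that is in even autosomal windows, it was 536, 3066, 68, 122, 1607, 4011, and 0 to 115. Inside them it was 735 with each clone its own term, 117 with no Dox term, 123 with all 12 libraries, 507 without clone C1, 983 without clone 2C2, and 0 to 170 without each library. Fewer samples were used in the last 3 of these settings, and otherwise the cause was not tested. The counts of 0 came from edgeR without C11 NoDox or C11 Dox, where 800 and 939 genes outside and 313 and 311 inside had an unadjusted p under 0.05. There the lone C11 library is assumed to vary like the others.

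Allelic calls were 626 without clone C1, 1488 without clone 2C2, and 75 to 144 without each library in turn. Differing Dox responses were 4 with DESeq2 in place of 141, and genes differing between C1 and 2C2 were 1851 in place of 4548. The cause was not tested. Xist passed the threshold with each clone its own term (log2 0.27), without clone C1 (0.33) and without clone 2C2 (0.21), and ranged from 0.20 to 0.34 without each library. The X-linked median stayed within the spread between libraries. Pdzrn3 reversed to 0.27 without clone C1 (adjusted p 0.0347, edgeR), cause not tested.

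The windows at chromosome ends held 489 genes, 543 with windows of 5 Mb and 513 with the stretches taken from the gene where the share shifts. That last alternative was chosen after seeing the data. No library was left out of the tests of Dox response or of C1 against 2C2, since no residual degrees of freedom would be left. No paired analysis was possible because the compared groups are clones with 1 library per state, and Dox state is already a term. Genes with low counts limit the shares.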
